A study of Mus musculus with 10 samples.

Results

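The genes examined were 10 amino acid carriers of the liver, Slc38a2, Slc38a3, Slc38a4, Slc7a2, Slc3a2, Slc43a1, Slc43a2, Slc1a4, Slc6a13 and Slc25a22, in cachectic (CACS) and non-cachectic (NCACS) mice with lung cancer. The members are a list of named genes, taken by symbol from the 43629 genes of the count table, and all 10 passed the filter on low counts. The livers, 5 NCACS and 5 CACS, were those of male mice of the KL model, in which, on an FVB background, adenovirus with Cre recombinase under the CMV promoter, given to adult mice through the nose, removes floxed Lkb1 and starts lung tumours. All 10 mice received the virus, so no liver of a mouse without tumour induction entered the comparison. The groups differ by the body weight each mouse had lost, between 3 and 14% in NCACS and between 29 and 33% in CACS mice.

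Hepatocytes take up amino acids from portal blood, use them for protein synthesis, glucose and urea, and release others. The carriers that do this belong to several families. Sodium-coupled carriers of the SLC38 family concentrate small neutral amino acids and glutamine, SLC7 proteins carry cationic or large neutral amino acids, in part as dimers with the heavy chain encoded by Slc3a2, SLC43 proteins let branched-chain and aromatic amino acids pass down their gradient, and mitochondrial carriers of the SLC25 family bring amino acids to the enzymes of the matrix. The comparison asked whether the transcripts of these carriers differed between livers of mice with and without cachexia.

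Of the 10 carriers, 0 passed an adjusted p-value of 0.05 (edgeR, quasi-likelihood, Benjamini-Hochberg over the 14143 genes that passed the filter), a threshold that 3.80% of all genes tested passed, 1.89% as higher and 1.92% as lower in CACS mice. By DESeq2, 1 of the 10 passed (10% of all genes with an adjusted p-value), by limma-voom 0 did (3.60% of all genes), and before adjustment edgeR gave 1 of them a p-value under 0.05 (21.6% of all genes). The exception was Slc38a2, the stress-inducible carrier of small neutral amino acids, with a fitted level 2.02 times as high in CACS as in NCACS mice. Among the 10 genes, CACS livers had 5 higher and 5 lower, with a median of -0.03 for the fitted CACS over NCACS ratio on the log2 scale (the log2 difference) beside -0.01 over all genes tested, and no carrier had groups that did not overlap (7.07% of all genes tested). Elsewhere among the amino acid carriers of the liver, the lysosomal Slc36a1 fell and the mitochondrial Slc25a29 rose in CACS livers. With each mouse left out in turn, Slc36a1 passed in 10 of 10 fits, but Slc25a29, near the threshold, in 1 of 10.

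The livers had between 31459179 and 40746178 counts each, and levels are given in CPM, the counts scaled to library size with TMM factors. The hepatocyte markers Alb, Apoa1, Ttr, Tf, Hnf4a, Cps1, Apob and Fgb summed to between 79083 and 122626 CPM in NCACS and between 112872 and 140539 CPM in CACS livers, with 1 of 8 called, Hnf4a, which was higher. Markers of Kupffer cells, the resident macrophages of the liver, summed to between 170 and 285 CPM in NCACS and between 101 and 204 CPM in CACS livers, with 1 of 7 called, Cd5l, which was lower. All 7 were lower, with a median log2 difference of -0.80. Before adjustment, 4 had an edgeR p-value under 0.05 (21.6% of all genes tested), and DESeq2 called 3 (10% of all genes with an adjusted p-value). Markers of sinusoidal endothelial cells, stellate cells and cholangiocytes had no called gene of 6, 7 and 5 and summed to ranges that overlapped between groups. The 6 endothelial markers were all higher (median log2 difference 0.22), the stellate cell markers 4 higher and 3 lower, and the cholangiocyte markers 1 higher and 4 lower. Markers of T and NK cells, B cells, neutrophils and lung epithelium summed to at most 12.6 CPM in any liver, and 1 of them was called, the lung epithelial Sftpa1, which was higher. The 3 B cell and 2 neutrophil markers tested were all lower. Those of T and NK cells were 2 higher and 2 lower, and those of lung epithelium 2 higher and 1 lower. With each mouse left out in turn, Hnf4a passed in 1 of 10 fits, Cd5l in 2 of 10 and Sftpa1 in 3 of 10, and limma-voom did not call Sftpa1. The part of these shifts in the values below was not tested. In whole liver, fewer cells of a type and less RNA per cell cannot be told apart.

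**Figure D1:**
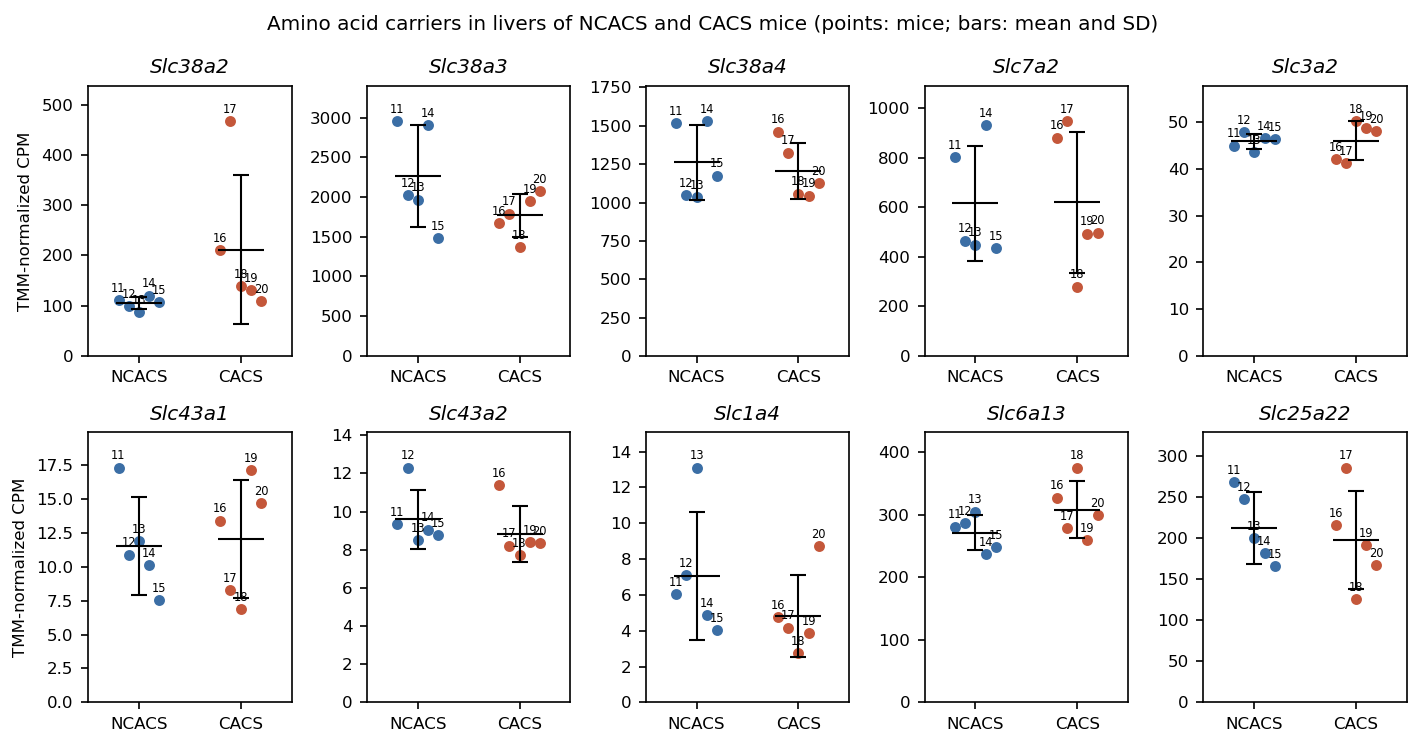
Each panel plots 1 carrier gene, with the TMM-normalized CPM of every liver on a linear vertical axis from 0, NCACS mice (11 to 15) on the left and CACS mice (16 to 20) on the right, and the mean and SD as bars (n = 5 each). The groups overlap in every panel, and in the panel of Slc38a2 mouse 17 stands at 467 CPM above all other livers.

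Expressed per kilobase of exon, which allows levels of different genes to be compared, the carriers spanned a wide range. Slc38a3, the glutamine, asparagine and histidine carrier of system N, had the highest level with 383 CPM per kb over the 10 livers, and Slc38a4, a carrier of neutral amino acids, followed with 289 CPM per kb. Slc6a13, which encodes GAT2, a carrier of GABA and taurine, had 99.7 CPM per kb, Slc7a2, which encodes the cationic amino acid carrier CAT2, had 67.7 CPM per kb, and Slc25a22, a mitochondrial glutamate carrier, had 34.2 CPM per kb. Lower levels were those of Slc38a2 (17.9 CPM per kb) and Slc3a2 (13 CPM per kb). Slc43a1 (2.07 CPM per kb), Slc1a4 (1.51 CPM per kb) and Slc43a2 (0.917 CPM per kb) were the lowest.

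Neighbours in this order mostly overlapped. The ranges over the 10 livers were apart between Slc38a4 and Slc6a13 and between Slc3a2 and Slc43a1, and overlapped for the other 7 neighbouring pairs. Within single livers the order was firmer: Slc38a3 was above Slc38a4 in 9 of 10 livers, Slc6a13 was above Slc7a2 in 8 of 10 and Slc7a2 was above Slc25a22 in 10 of 10, but Slc38a2 was above Slc3a2 in 5 of 10 only. Those 5 were CACS mice 16 to 19 and NCACS mouse 14. Slc38a2 had 11.9 ± 1.42 CPM per kb (SD, n = 5) in NCACS and 23.9 ± 16.7 CPM per kb (SD, n = 5) in CACS livers while Slc3a2 had 13 ± 0.466 and 13.1 ± 1.17 CPM per kb (SD, n = 5 each).

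**Figure D2:**
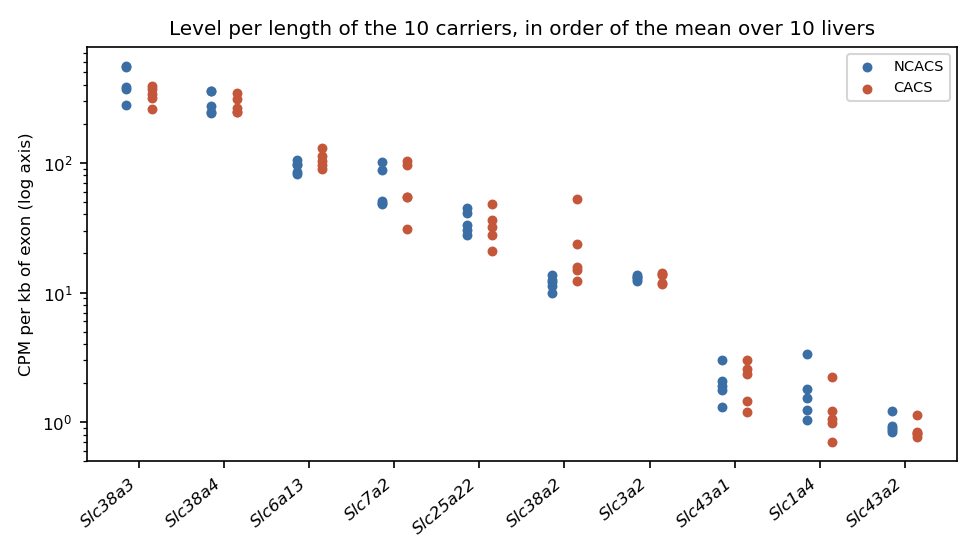
CPM per kilobase of exon on a log vertical axis for the 10 carriers, ordered from left to right by the mean over 10 livers, with 1 point per liver and NCACS and CACS livers side by side. Slc38a3 and Slc38a4 lead at 383 and 289 CPM per kb, and Slc43a2 is last at 0.917 CPM per kb.

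Slc38a2 (ENSMUSG00000022462, genome build GRCm38, chromosome 15, 96687392 to 96699730, reverse strand) encodes SNAT2, a system A carrier whose transcription is known to respond to amino acid shortage, to hypertonic stress and, in liver, to glucagon. NCACS mice 11, 12, 13, 14 and 15 had 111, 99.0, 87.1, 120 and 107 CPM, and CACS mice 16, 17, 18, 19 and 20 had 211, 467, 139, 131 and 109 CPM. The NCACS livers lay close together, 4 of the 5 CACS livers were above all of them, and mouse 20 was within the NCACS range. Between groups the log2 difference was 1.01 (standard error, SE, 0.348, 95% interval 0.25 to 1.77, unadjusted p = 0.0135, edgeR's adjusted p = 0.123), and the exact permutation test (two-sided, on mean log2 CPM) gave p = 0.0238.

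The size of this difference rested on 1 liver. Without CACS mouse 17 the log2 difference of Slc38a2 was 0.50 (edgeR's adjusted p = 0.139), while leaving out any of the other 9 mice gave values between 0.95 and 1.18. DESeq2 gave an adjusted p of 0.0336 and limma-voom 0.178, so the call depended on the test. The spread was also unequal, with a coefficient of variation of 12% in NCACS and 70.0% in CACS livers.

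Slc38a2 and Slc38a4 lie near each other on chromosome 15 and belong to one family, and their promoters differ in base composition, for which reason both are shown. The 100 bases before each start in RefSeq's GRCm38.p6 annotation, 5′ to 3′ on the reverse strand with CG dinucleotides in capitals, are chr15:96699729-96699828 for Slc38a2 and chr15:97055957-97056056 for the first of 3 annotated starts of Slc38a4.
Slc38a2: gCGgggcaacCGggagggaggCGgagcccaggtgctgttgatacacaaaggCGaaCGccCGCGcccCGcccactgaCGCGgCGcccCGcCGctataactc
Slc38a4: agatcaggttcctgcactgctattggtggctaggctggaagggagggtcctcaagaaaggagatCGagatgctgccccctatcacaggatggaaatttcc
The Slc38a2 stretch holds 13 CG dinucleotides and the Slc38a4 stretch 1. Over the full 300 bases of the promoter entry, Slc38a2 had 41, as many as or more than 97.0% of the 32851 promoters in the table, and each of the 3 starts of Slc38a4 had 5, beside a median of 7 over all promoters.

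Slc38a3 (ENSMUSG00000010064, chromosome 9, 107650634 to 107669530, reverse strand) encodes SNAT3, which moves glutamine into or out of hepatocytes with sodium and in exchange for protons. NCACS mice 11 to 15 had 2955, 2020, 1968, 2906 and 1486 CPM, and CACS mice 16 to 20 had 1672, 1792, 1369, 1948 and 2075 CPM. NCACS mice 11 and 14 stood above all other livers, and the remaining 3 NCACS livers overlapped the CACS livers. This gave a log2 difference of -0.36 (SE 0.202, 95% interval -0.80 to 0.09, edgeR's adjusted p = 0.329; exact permutation p = 0.175), which was within the spread between mice.

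Slc38a4 (ENSMUSG00000022464, chromosome 15, 96994820 to 97055956, reverse strand) encodes SNAT4, a system A carrier of the liver that is imprinted in the mouse. The NCACS livers had 1517, 1048, 1036, 1530 and 1174 CPM and the CACS livers 1462, 1325, 1058, 1045 and 1124 CPM, in the order of the mouse numbers. Both groups covered nearly the same range, and the log2 difference was -0.07 (SE 0.161, 95% interval -0.42 to 0.28, edgeR's adjusted p = 0.849). Its sign turned without NCACS mouse 11 or 14, whose levels were the highest of the 10 livers.

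Slc7a2 (ENSMUSG00000031596, chromosome 8, 40862396 to 40922308, forward strand) encodes CAT2, which carries arginine, lysine and ornithine and has a liver isoform of low affinity that gene counts cannot separate from the other isoform. NCACS mice 11 to 15 had 802, 466, 450, 931 and 436 CPM, and CACS mice 16 to 20 had 882, 948, 280, 494 and 498 CPM. In each group 2 livers stood well above the other 3, mice 11 and 14 in NCACS and mice 16 and 17 in CACS, and CACS mouse 18 was the lowest of the 10. The group means hardly differed (617 ± 233 and 621 ± 284 CPM, SD, n = 5 each), and with a log2 difference of 0.01 (SE 0.335, edgeR's adjusted p = 0.993) the 95% interval ran from -0.72 to 0.74, so that a moderate difference in either direction was not detectable with this spread. The exons overlap those of the antisense-strand Gm26584 by 635 bases, and that gene had between 4 and 33 counts per liver.

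Slc3a2 (ENSMUSG00000010095, chromosome 19, 8706882 to 8723369, reverse strand) encodes 4F2hc (CD98), the heavy chain that brings several SLC7 light chains to the plasma membrane. Its level was the most even of the 10 carriers, with 45.9 ± 1.64 (NCACS) and 46.1 ± 4.12 CPM (CACS; mean ± SD, n = 5 each), and every liver between 41.2 and 50.2 CPM. The CACS mice 16 and 17, at 42.1 and 41.2 CPM, were the 2 lowest of the 10 livers, and mouse 18, at 50.2 CPM, was the highest. Its log2 difference was 0.01 (SE 0.0809, edgeR's adjusted p = 0.976), with a 95% interval of -0.17 to 0.18, the narrowest of the 10.

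The carriers of branched-chain and aromatic amino acids were Slc43a1 and Slc43a2, which encode LAT3 and LAT4. Slc43a1 (ENSMUSG00000027075, chromosome 2, 84838850 to 84863594, forward strand) had 17.3, 10.9, 11.9, 10.1 and 7.54 CPM in NCACS mice 11 to 15 and 13.4, 8.29, 6.85, 17.1 and 14.7 CPM in CACS mice 16 to 20. High and low livers occurred in both groups, and the log2 difference was 0.06 (SE 0.270, 95% interval -0.53 to 0.65, edgeR's adjusted p = 0.920), with a sign that turned when NCACS mouse 15 or CACS mouse 19 or 20 was left out.

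Slc43a2 (ENSMUSG00000038178, chromosome 11, 75531694 to 75577575, forward strand) had 9.35, 12.3, 8.51, 9.06 and 8.77 CPM in NCACS mice 11 to 15 and 11.4, 8.21, 7.70, 8.39 and 8.36 CPM in CACS mice 16 to 20. In each group 1 liver, mouse 12 and mouse 16, was above 4 others that lay close together. CACS over NCACS, the log2 difference was -0.12 (SE 0.142, 95% interval -0.43 to 0.19, edgeR's adjusted p = 0.669). The antisense gene Gm45606 shares 922 exonic bases with Slc43a2 and is not among the genes of the count table. The strand setting of the counting is not given in the sources used here.

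Slc1a4 (ENSMUSG00000020142, chromosome 11, 20302180 to 20332713, reverse strand) encodes ASCT1, an exchanger of alanine, serine, cysteine and threonine. NCACS mice 11 to 15 had 6.05, 7.12, 13.1, 4.88 and 4.05 CPM, and CACS mice 16 to 20 had 4.75, 4.17, 2.74, 3.86 and 8.73 CPM, from between 84 and 405 counts per liver. NCACS mouse 13 was the highest liver and CACS mouse 18 the lowest, and CACS mouse 20 was above 4 of the NCACS livers. Between groups the log2 difference was -0.54 (SE 0.356, 95% interval -1.31 to 0.24, edgeR's adjusted p = 0.410), and it was -0.19 without NCACS mouse 13 and -0.85 without CACS mouse 20.

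The promoters of the carriers were searched for 4 motifs on both strands, in the 15 RefSeq entries of 8 of the 10 members; Slc38a3 and Slc7a2 were not matched. TGATGNAA, the core of the C/EBP-ATF response element through which ATF4 acts on genes of the amino acid response, occurred in 1 of the 15 entries, that of Slc1a4, and in 3.97% of the 32851 promoters of the table. The match lies across the annotated start at chr11:20332698-20332727 of GRCm38.p6, shown here on the reverse strand with the motif, read on the opposite strand, in capitals.
Slc1a4: gcctcctgcgTTGCATCAtctccagcctgc
TTCNNNGAA, bound by STAT factors, occurred in 8.30% of all promoters, TGACGTCA, the cAMP response element, in 1.79% and the palindromic glucocorticoid response element in 0.00913%, and none of these 3 occurred in the 15 entries. These windows cover only 250 bases before and 50 after each start.

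Slc6a13 (ENSMUSG00000030108, chromosome 6, 121300227 to 121337733, forward strand) had 281, 286, 305, 237 and 248 CPM in NCACS mice 11 to 15 and 327, 278, 375, 259 and 299 CPM in CACS mice 16 to 20. CACS mice 16 and 18 were above all NCACS livers and the other 3 were within their range. This gave a log2 difference of 0.18 (SE 0.123, 95% interval -0.09 to 0.45, edgeR's adjusted p = 0.423). Abat, the transaminase that degrades the GABA that this carrier takes up, had 434 ± 98.3 (NCACS) and 325 ± 55.0 CPM (CACS; mean ± SD, n = 5 each), a log2 difference of -0.41 and an adjusted p of 0.192 in edgeR's fit.

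Slc25a22 (ENSMUSG00000019082, chromosome 7, 141429744 to 141437892, reverse strand) encodes GC1, which takes glutamate into mitochondria with a proton. NCACS mice 11 to 15 had 268, 248, 200, 182 and 166 CPM, and CACS mice 16 to 20 had 216, 286, 126, 192 and 167 CPM. The lowest and the highest liver were both CACS livers, mouse 18 and mouse 17. Its log2 difference was -0.11 (SE 0.208, 95% interval -0.56 to 0.35, edgeR's adjusted p = 0.813). Glud1, the mitochondrial glutamate dehydrogenase, had a log2 difference of -0.05 (adjusted p = 0.853) and varied less between livers, from 686 to 896 CPM.

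The carriers differed in how much they varied between livers of a group. The ratio of the highest to the lowest liver was 4.27 in CACS mice for Slc38a2, 3.38 for Slc7a2 and 3.19 for Slc1a4, but 1.22 for Slc3a2, 1.40 for Slc38a4 and 1.45 for Slc6a13. In NCACS mice the same ratio was 3.24 for Slc1a4, 2.30 for Slc43a1, 2.14 for Slc7a2 and 1.99 for Slc38a3, and 1.48 for Slc38a4, 1.38 for Slc38a2 and 1.10 for Slc3a2. The 10 carriers summed to between 3684 and 6012 CPM in NCACS and between 3415 and 5159 CPM in CACS livers, and Slc38a3, Slc38a4 and Slc7a2 together made up between 83.2 and 89.8% of this sum in NCACS and between 78.8 and 84.9% in CACS livers.

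The livers that were high or low were partly the same for several carriers, a pattern described here after it was seen in the values and not tested. The mice named for it, in both groups, were picked from these values. The shares of all genes given beside them therefore cannot show how unusual the order is. NCACS mice 11 and 14, which had lost 4 and 3% of their weight, were both above the other 3 NCACS mice for Slc38a2, Slc38a3, Slc38a4 and Slc7a2, 4 of the 10 carriers, against 9.84% of all genes tested. The 3 other NCACS mice had lost 8, 11 and 14%, and the one with the greatest loss, mouse 15, was the lowest of its group for 5 of the 10 carriers, against 24.7% of all genes tested. Other carriers did not follow this order. Mouse 13, which had lost 11%, was the lowest for 4 carriers and the highest for 2, against 27.0 and 24.2% of all genes tested. Mouse 14 was the lowest NCACS liver for Slc6a13. Mice 11 and 14 were also the 2 highest NCACS livers for 9 of 24 enzymes that use or make the carried amino acids. Among these were the urea cycle enzymes Arg1, Cps1, Ass1 and Asl. The urea cycle enzyme Otc was not, with 444, 336, 292, 584 and 526 CPM in NCACS mice 11 to 15. Except for Arg1, these urea cycle enzymes are named here after their values were seen.

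In CACS livers, mouse 18, which had lost 33% of its weight, the most of all mice, was the lowest of its group for 6 of the 10 carriers, Slc38a3, Slc7a2, Slc43a1, Slc43a2, Slc1a4 and Slc25a22, against 19.4% of all genes tested. Mouse 18 was likewise the lowest CACS liver for 11 of the 24 enzymes. For 2 of the 10 carriers, Slc3a2 and Slc6a13, mouse 18 was instead the highest CACS liver, against 19.6% of all genes tested. Mice 16 and 17 were both above the other CACS mice for Slc38a2, Slc38a4, Slc7a2 and Slc25a22, 4 of the 10 carriers against 11.9% of all genes tested. The same held for 2 of the 24 enzymes, Abat and the tyrosine-degrading Tat, the latter named after its values were seen. These mice had lost 32 and 29% of their weight.

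**Figure D3:**
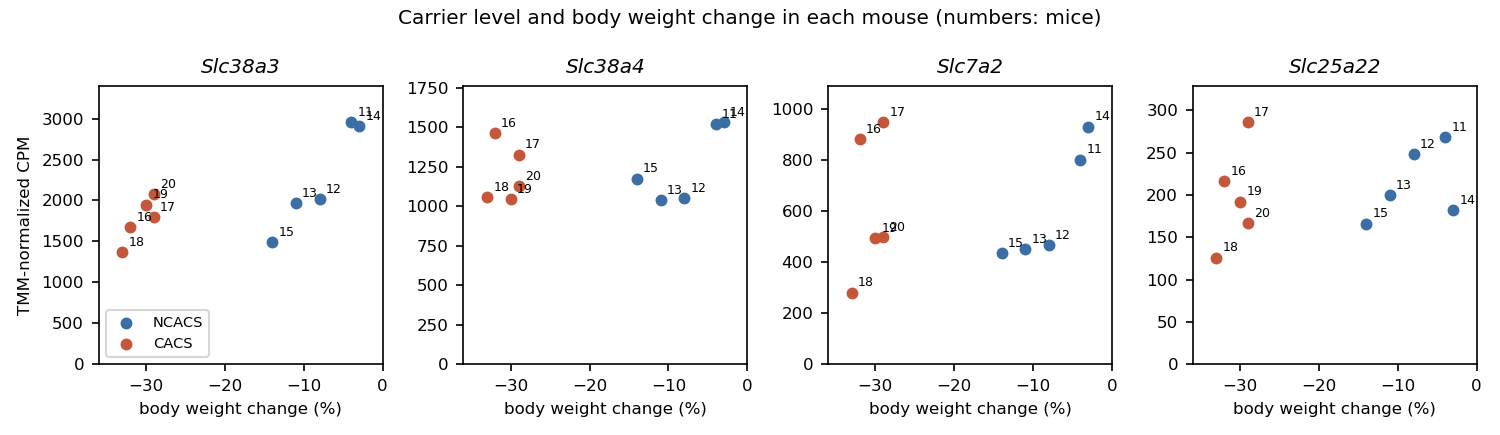
TMM-normalized CPM (vertical axis, from 0) against body weight change in percent (horizontal axis) for Slc38a3, Slc38a4, Slc7a2 and Slc25a22, with 1 numbered point per mouse. NCACS mice 11 and 14, at a weight change of -4 and -3%, are highest in their group for Slc38a3, Slc38a4 and Slc7a2, and CACS mouse 18, at -33%, is lowest in its group for Slc38a3, Slc7a2 and Slc25a22. For Slc38a4 the lowest CACS liver is mouse 19, and for Slc25a22 mouse 14 is below NCACS mice 11, 12 and 13.

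The other amino acid carriers were taken from a list of 49 genes, of which 29 passed the filter on low counts, and 2 of the 29 passed the adjusted p-value of 0.05 in edgeR's test, 1 higher and 1 lower (3.80% of all genes tested passed in either direction). The 3 with the highest level per length were Slc25a13, the aspartate and glutamate carrier citrin, with 59.0 CPM per kb, Slc25a15, the ornithine carrier of the urea cycle, with 58 CPM per kb, and Slc6a12, the betaine carrier BGT1, with 29.8 CPM per kb. None of these 3 passed the test, with log2 differences of 0.09, 0.13 and -0.26 (adjusted p = 0.740, 0.755 and 0.263 from edgeR's test). Of the 31 other carriers of the plasma membrane, 14 were tested and 0 called, with 8 higher and 6 lower and a median log2 difference of 0.07. Before adjustment, 1 of them had an edgeR p-value under 0.05 (21.6% of all genes tested). DESeq2 and limma-voom also called 0 of these.

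Slc36a1 (ENSMUSG00000020261, chromosome 11, 55204350 to 55236330, forward strand) encodes PAT1, which moves small neutral amino acids with protons, mainly across the lysosomal membrane. It fell in CACS livers, from 62.0, 70.4, 71.2, 55.8 and 55.5 CPM in NCACS mice 11 to 15 to 39.4, 38.6, 46.7, 42.6 and 35.2 CPM in CACS mice 16 to 20. The groups were apart, with the highest CACS liver at 46.7 and the lowest NCACS liver at 55.5 CPM. CACS over NCACS, the log2 difference was -0.64 (SE 0.107, 95% interval -0.87 to -0.40, edgeR's adjusted p = 0.0140). The call held in all 10 fits that left out a mouse (edgeR's adjusted p from 0.0173 to 0.0410). The exact permutation test gave p = 0.00794, the smallest it can give. It gives this value to any gene whose groups do not overlap (7.07% of all genes tested).

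Slc25a29 (ENSMUSG00000021265, chromosome 12, 108825873 to 108835883, reverse strand) encodes a mitochondrial carrier of basic amino acids. It rose in CACS livers, from 1.54, 2.46, 3.14, 2.08 and 1.42 CPM in NCACS mice 11 to 15 to 3.37, 3.96, 4.05, 5.49 and 3.87 CPM in CACS mice 16 to 20, from between 46 and 195 counts per liver. All CACS livers were above all NCACS livers, by a small margin between mouse 13 and mouse 16. Between groups the log2 difference was 0.96 (SE 0.233, 95% interval 0.45 to 1.47, edgeR's adjusted p = 0.0442), and the call was near the threshold, since the adjusted p was between 0.0327 (without NCACS mouse 13) and 0.0985 (without CACS mouse 19) when a mouse was left out, and passed in 1 of these 10 fits.

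The 100 bases before the RefSeq starts of these 2 called carriers, shown 5′ to 3′ on the strand of the gene with CG dinucleotides in capitals for comparison with Slc38a2, are chr11:55204240-55204339 for Slc36a1 and chr12:108835877-108835976 for Slc25a29 of GRCm38.p6.
Slc36a1: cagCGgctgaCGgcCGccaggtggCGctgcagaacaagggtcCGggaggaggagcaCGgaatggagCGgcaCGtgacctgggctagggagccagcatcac
Slc25a29: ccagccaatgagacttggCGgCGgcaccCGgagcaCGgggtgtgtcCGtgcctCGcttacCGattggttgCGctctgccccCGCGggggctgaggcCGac
They hold 8 and 11 CG dinucleotides, between the 1 of Slc38a4 and the 13 of Slc38a2.

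Of the lysosomal carriers, 7 of 8 were tested, and Slc36a1 was the 1 called. Slc38a9, an arginine-sensing carrier of the lysosome, was higher in every CACS liver (12.8 to 15 CPM) than in any NCACS liver (9.99 to 12 CPM), but with a log2 difference of 0.34 its adjusted p was 0.0528 in edgeR's test, between 0.0513 and 0.118 in the other edgeR fits on all livers, 0.0564 in limma-voom and 0.00858 in DESeq2. It is named here after its values were seen. Of the other mitochondrial carriers, 8 of 10 were tested, of which CACS livers had 7 higher and 1 lower, with a median log2 difference of 0.13, and Slc25a29 was the 1 called.

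**Figure D4:**
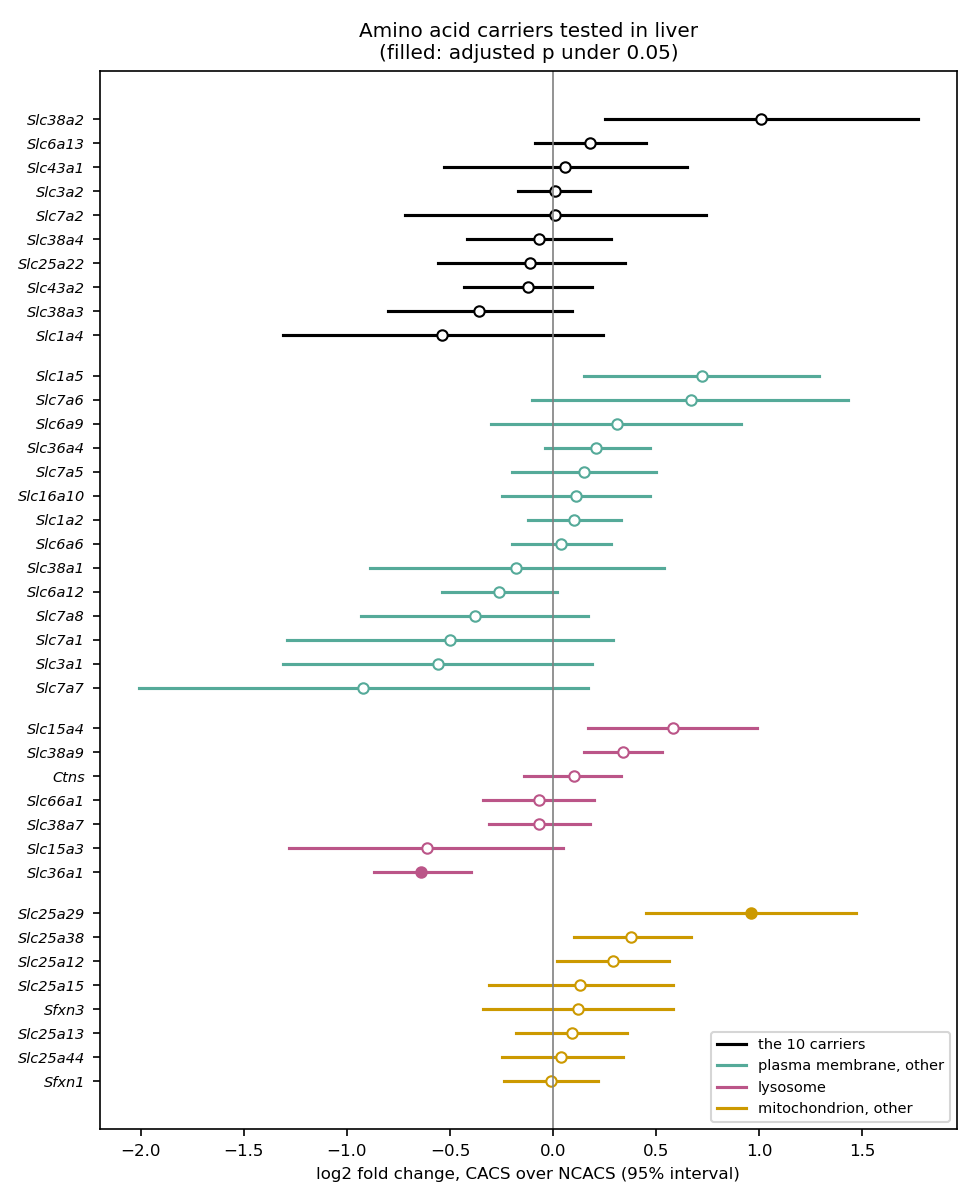
Log2 difference of CACS over NCACS livers (points, n = 5 each) with 95% intervals (lines) for the 10 carriers and the 29 other amino acid carriers tested, by location. Filled points, Slc36a1 at -0.64 and Slc25a29 at 0.96, passed edgeR's test at 0.05, and the 10 carriers at the top are all open.

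The genes around the carriers were read from 2 further lists. In the amino acid response, the kinase GCN2 (Eif2ak4) senses uncharged tRNA and raises translation of the transcription factor ATF4. Of 14 genes of this response, 13 were tested and 0 passed in edgeR's test (3.80% of all genes tested). They were 9 higher and 4 lower, with a median log2 difference of 0.17. Before adjustment, 2 had an edgeR p-value under 0.05 (21.6% of all genes tested). DESeq2 called 1 (10% of all genes with an adjusted p-value) and limma-voom 0 (3.60% of all genes). Atf4 had 102 ± 15.3 (NCACS) and 115 ± 17.4 CPM (CACS; mean ± SD, n = 5 each), a log2 difference of 0.17 with an adjusted p of 0.478 from edgeR's test. Asns, which makes asparagine and is a standard target of ATF4, had a log2 difference of 0.69 (edgeR's adjusted p = 0.552) that turned to -0.10 without CACS mouse 16, the highest liver with 4.05 CPM.

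Of 24 enzymes that use or make the carried amino acids, all were tested and 0 passed in edgeR's test (3.80% of all genes tested). Of these, 15 were higher and 9 lower, with a median log2 difference of 0.09. Before adjustment, 5 had an edgeR p-value under 0.05 (21.6% of all genes tested). DESeq2 called 2 (10% of all genes with an adjusted p-value) and limma-voom 0 (3.60% of all genes). Arg1, the arginase that splits the arginine carried by CAT2, had 1244 ± 290 (NCACS) and 1675 ± 273 CPM (CACS; mean ± SD, n = 5 each), a log2 difference of 0.43 with an adjusted p of 0.202. For glutamine, the liver glutaminase Gls2 had a log2 difference of 0.06 (adjusted p = 0.905) and glutamine synthetase, Glul, of -0.01 (adjusted p = 0.956). Bckdhb, a subunit of the enzyme that commits branched-chain amino acids to degradation, had a log2 difference of -0.05 (adjusted p = 0.874 from the same edgeR test).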

How the data were processed

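RNA from the livers of 5 NCACS and 5 CACS KL mice was sequenced from one end after stranded mRNA library preparation. The authors aligned the reads to GRCm38 with STAR 2.4.1d and counted them per Ensembl gene with HTSeq 0.6.1; the annotation release and the strand setting are not given in the sources used here. The values are the raw counts as deposited, without normalization. Symbols, positions and exon lengths were read from GENCODE M21 (GRCm38), which holds 42548 of the 43629 identifiers; the list genes Slc66a1 and Tf were matched through RefSeq synonyms. Groups, mouse numbers and weight changes came from the labels, and 0 columns were left unused.

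The counts were analysed with edgeR 4.0.16 in R 4.3.3 (filterByExpr, TMM factors, quasi-likelihood test, Benjamini-Hochberg adjustment over all genes tested, threshold 0.05). The same test stands behind adjusted p-values given without a tool. Standard errors were derived from the F statistic, and 95% intervals from the t distribution with the degrees of freedom of the fit. Log2 CPM used a prior count of 2. Single carriers were also tested by a two-sided exact permutation over 252 assignments, whose smallest p-value is 0.00794. Level per length is CPM divided by the union of annotated exons. No liver was a duplicate of another: within groups, pairs differed by a chi-square of 46.1 or more for each degree of freedom. The p-values set the difference between groups against the spread between these mice, which edgeR's fit moderates across genes. On simulated counts for 13969 genes, edgeR recovered 60 of 100 genes changed 2-fold and 91 of 100 changed 4-fold, with 5 false calls among 156. DESeq2 recovered 72 and 97 of the same genes, with 31 false calls among 200.

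The alternatives were DESeq2 1.42.0, limma-voom (limma 3.58.1), a robust fit, scaling by RLE, by upper quartile or by unscaled totals, dropping the filter or asking for 10 counts in all livers, a prior count of 0.5, the longest transcript as length, and leaving out each mouse. The members and gene lists were chosen with earlier results of these data known. Named genes were all members, called genes of the lists, the 3 other carriers with the highest level per length and 8 fixed genes (Atf4, Asns, Arg1, Gls2, Glul, Glud1, Abat and Bckdhb).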

Additional observations from a re-analysis of the deposited data

Results flagged for a closer look

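Each group of 5 livers was examined for a liver far from the others in log2 CPM, and of 46 such sets (23 named genes by group) 3 went past the critical value of Dixon's test at the 95% level, which chance alone passes in about 1 of 20. Slc43a2 was high in NCACS mouse 12 (12.3 CPM, next 9.35 CPM, gap over range 0.743) and in CACS mouse 16 (11.4 CPM, next 8.39 CPM, gap over range 0.781). Slc6a12, the betaine carrier, was low in NCACS mouse 12 (79.9 CPM, next 102 CPM, gap over range 0.851). The antisense gene that overlaps Slc43a2 is not among the genes of the count table, and its part in these values was not tested.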

How the results depend on the processing

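No paired analysis was possible because NCACS mice carry the numbers 11 to 15 and CACS mice 16 to 20. For the changes given here the cause was not tested.

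DESeq2 gave 1386 genes past the threshold (672 higher, 714 lower) against 538 (267 higher, 271 lower) in edgeR's test, 1 of the 10 carriers (Slc38a2), 4 other carriers (Slc36a1, Slc38a9, Slc15a4 and Slc25a29) and 3 genes of the response and enzyme lists (Atf3, Asl and Got1). Without a filter, which tests more genes, 392 genes passed (173 higher, 219 lower). Of the other carriers, 1 passed (Slc36a1) with upper-quartile factors, raw library totals or no filter, where Slc25a29 had log2 differences of 0.95, 0.97 and 0.96 and missed the threshold. Slc36a1 passed under every alternative run.

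In the 10 fits that each left out a mouse, which have fewer samples, the number of genes past the threshold was lowest without NCACS mouse 11 at 178 and highest without CACS mouse 17 at 519, with 79 to 246 higher and 96 to 273 lower ones. Of the 10 carriers 0 passed in each, of the other carriers 1 to 2, and of the response and enzyme genes 0 to 2 (Trib3 and Asl without CACS mouse 17, Atf3 and Got1 without CACS mouse 18).

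Small log2 differences turned sign. Slc7a2 was -0.0603 with limma-voom, and Slc3a2 was -0.0020 with DESeq2, -0.0014 with RLE and -0.0044 with upper-quartile factors. With a mouse left out, log2 differences ranged from -0.15 to 0.0119 for Slc38a4, -0.19 to 0.21 for Slc7a2, -0.0258 to 0.0468 for Slc3a2, -0.0929 to 0.26 for Slc43a1, -0.27 to 0.0197 for Slc25a22, -0.0516 to 0.26 for Slc25a15, -0.10 to 1.16 for Asns, -0.0375 to 0.22 for Gls2, -0.0497 to 0.0440 for Glul and -0.12 to 0.0513 for Bckdhb. The order of the 10 carriers by level per length kept all 10 places under RLE factors, the longest transcript and each mouse left out. With either prior count and with RLE factors, 1 of the 10 carriers had an unadjusted p under 0.05 in the exact permutation test. That test was not run over all genes, so no share of all genes stands beside this count. Low counts limit the precision of Asns, Slc25a29 and Slc1a4, with at least 8, 46 and 84 counts per liver.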
